A study of Mus musculus with 22 samples.

Results

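Chromatin accessibility in mouse brain was examined here at its broadest sites. From the 22 peak lists, each of 1 library, distinct peak intervals of 1500 bp or more on chromosomes 1 to 19 were pooled and merged, and the merged regions that held such an interval from 11 or more lists were kept. This rule gave 711 broad open domains out of 3125 merged regions with an interval of that width in any list, and out of 542697 open regions in all. The domains were thus selected on their measured widths and on the number of lists, so both are given below as description, with no test. The length of each domain that intervals covered, which is tested, comes from the same libraries and is not independent of that choice.

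OMNI-ATAC-seq, in which a transposase cuts the accessible DNA of nuclei, was run on 20 to 30 mg of frozen hippocampus or frontal cortex, and paired reads of 50 bp were taken. The animals were adult C57BL/6J males that modelled Gulf War Illness. Every animal drank corticosterone (CORT), the rodent stress hormone, for 7 days, received the acetylcholinesterase inhibitor diisopropyl fluorophosphate (DFP) on day 8 and then intermittent CORT for 5 weeks, before saline or lipopolysaccharide (LPS), a bacterial product that triggers inflammation. No group without CORT and DFP was analysed here, so the comparisons concern LPS and tissue within exposed animals. The 11 animals gave 1 library per tissue: 2 received saline and were collected at 6 h, and 3 received LPS for each of the times 6, 12 and 24 h. At 12 and 24 h the LPS groups differ from saline in collection time as well as in treatment, and these cannot be told apart. One further baseline animal had been excluded for low depth, per the series' design text.

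In ATAC-seq, most open sites are short, the width of a nucleosome-free gap between neighbouring nucleosomes. Longer stretches of open DNA occur where several such gaps merge. Promoters with many CpG dinucleotides, known as CpG island promoters, are often open over a long stretch in most cell types, and they serve many housekeeping genes as well as regulators of development. In bulk tissue an interval sums over all cells, so fewer open cells of one type and less opening per cell cannot be told apart.

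The promoters under broad domains were rich in G, C and CpG, and 5 windows are shown for that reason. Both windows of Sp3 are shown because 1 gene can have starts of different composition, Shank3 and Picalm for windows of high GC content, and Syt1 for a window with few CpG; Picalm and Syt1 also come up in the tissue comparison. The sequences are RefSeq promoter windows of build GRCm38.p6, from 250 bases before a gene start to 50 bases after it, 5′ to 3′ on the gene's strand, and capitals mark GC boxes (GGGCGG, or CCGCCC on the other strand), the letters bound by the SP and KLF family of zinc finger factors. They lie at chr2:72980397-72980696 and chr2:72979232-72979531 (minus strand, Sp3, first and second window), chr15:89499358-89499657 (plus strand, Shank3), chr7:90129963-90130262 (plus strand, Picalm) and chr10:109010926-109011225 (minus strand, Syt1).
Sp3 first window: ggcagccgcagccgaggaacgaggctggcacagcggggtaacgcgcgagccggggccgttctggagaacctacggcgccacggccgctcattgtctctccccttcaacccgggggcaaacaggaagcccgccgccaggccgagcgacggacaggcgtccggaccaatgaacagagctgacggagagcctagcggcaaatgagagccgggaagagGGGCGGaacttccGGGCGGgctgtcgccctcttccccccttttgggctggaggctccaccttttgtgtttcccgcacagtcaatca
Sp3 second window: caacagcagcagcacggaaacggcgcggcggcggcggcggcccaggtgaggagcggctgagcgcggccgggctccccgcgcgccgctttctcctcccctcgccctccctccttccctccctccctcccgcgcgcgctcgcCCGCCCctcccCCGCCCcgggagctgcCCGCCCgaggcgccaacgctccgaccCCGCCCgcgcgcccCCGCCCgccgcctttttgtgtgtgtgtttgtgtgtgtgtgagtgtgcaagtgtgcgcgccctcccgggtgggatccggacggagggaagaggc
Shank3: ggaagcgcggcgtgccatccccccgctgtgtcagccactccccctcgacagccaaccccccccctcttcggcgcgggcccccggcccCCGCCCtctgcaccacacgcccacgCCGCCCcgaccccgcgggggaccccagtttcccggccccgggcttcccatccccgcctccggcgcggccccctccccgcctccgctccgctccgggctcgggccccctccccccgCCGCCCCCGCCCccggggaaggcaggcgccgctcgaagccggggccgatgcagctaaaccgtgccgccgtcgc
Picalm: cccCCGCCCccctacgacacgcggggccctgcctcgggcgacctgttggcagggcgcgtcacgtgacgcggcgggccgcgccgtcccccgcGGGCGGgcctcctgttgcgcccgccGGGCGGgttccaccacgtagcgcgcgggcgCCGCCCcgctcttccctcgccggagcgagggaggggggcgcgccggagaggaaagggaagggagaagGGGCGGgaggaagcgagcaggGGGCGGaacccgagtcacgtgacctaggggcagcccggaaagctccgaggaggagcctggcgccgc
Syt1: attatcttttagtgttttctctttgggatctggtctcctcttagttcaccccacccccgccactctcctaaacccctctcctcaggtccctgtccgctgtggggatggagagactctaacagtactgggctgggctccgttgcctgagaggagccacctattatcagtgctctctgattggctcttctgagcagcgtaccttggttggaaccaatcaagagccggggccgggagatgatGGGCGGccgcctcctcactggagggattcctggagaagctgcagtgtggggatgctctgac
Sp3 itself encodes a GC-box-binding factor, and its first window held 29 CpG and 2 GC boxes and its second 42 CpG and 5 GC boxes. The window of Shank3, a scaffold protein of excitatory synapses, held 40 CpG and 4 GC boxes, and that of Picalm, a clathrin assembly protein, 44 CpG and 6 GC boxes. The window of Syt1, which senses calcium for transmitter release, held 8 CpG and 1 GC box. The second Sp3 window, Shank3 and Picalm, at 76.3%, 81% and 78% GC, lay above the upper quartile of 73.7% over all windows in broad domains.

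Of the 20084 protein-coding promoter windows in the RefSeq table on these chromosomes, 717 had their start inside a broad domain. Their median GC content was 68%, against 57% over all windows and 62% over the windows whose start lay under an interval in all 22 libraries but outside a broad domain. The median number of CpG was 29 in broad domains, 14 over all windows and 22 in those other open windows. The ratio of observed to expected CpG exceeded 0.6 in 87.2% of windows in broad domains, against 48.9% of all windows and 78.1% of the other open windows. A GC box on either strand was present in 76.4% of windows in broad domains, 47.0% of all windows and 68.3% of the other open windows. Windows in the merged regions that reached 1500 bp in only 1 to 10 lists were close to those of the domains, with a median GC content of 65.7%, a median of 26 CpG, a CpG ratio over 0.6 in 84.3% and a GC box in 75.1%. The TATA box (TATAAA), the element of many strongly regulated promoters, was present in 3.77%, 12.7% and 5.81% in that order. The EGR site (GCGTGGGCG) was found in 2.09%, 0.832% and 1.22%, and the CRE core (TGACG), read by CREB and ATF factors, in 33.6%, 24.0% and 33.7%.

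For the other motifs the shares are given for broad domains and then for the other open windows, as descriptions with no test. The CCAAT box (CCAAT), bound by NF-Y, was present in 30.3% of windows in broad domains and in 39.6% of the other open windows. The ETS core (CCGGAAG) was present in 11.6% and 19.7%, the YY1 core (AAGATGG) in 3.91% and 7.39%, and the neuronal E-box (CAGATG), a site of NEUROD-type factors, in 7.39% and 11%. The AP-1 site (TGACTCA), bound by FOS and JUN, was found in 2.37% and 2.93%, the NRF1 core (GCGCATGC) in 4.32% and 5.98%, the E-box of the clock and MYC class (CACGTG) in 9.90% and 10.6%, the full CRE (TGACGTCA) in 2.93% and 3.73%, and part of the REST site (TTCAGCACC) in 0.279% and 0.459%. The full CRE contains the CRE core, so those matches overlap. A window covers only the stretch around a start and can reach past the domain's edge, and base composition differs between the sets, so these shares describe the letters and not binding.

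**Figure D1:**
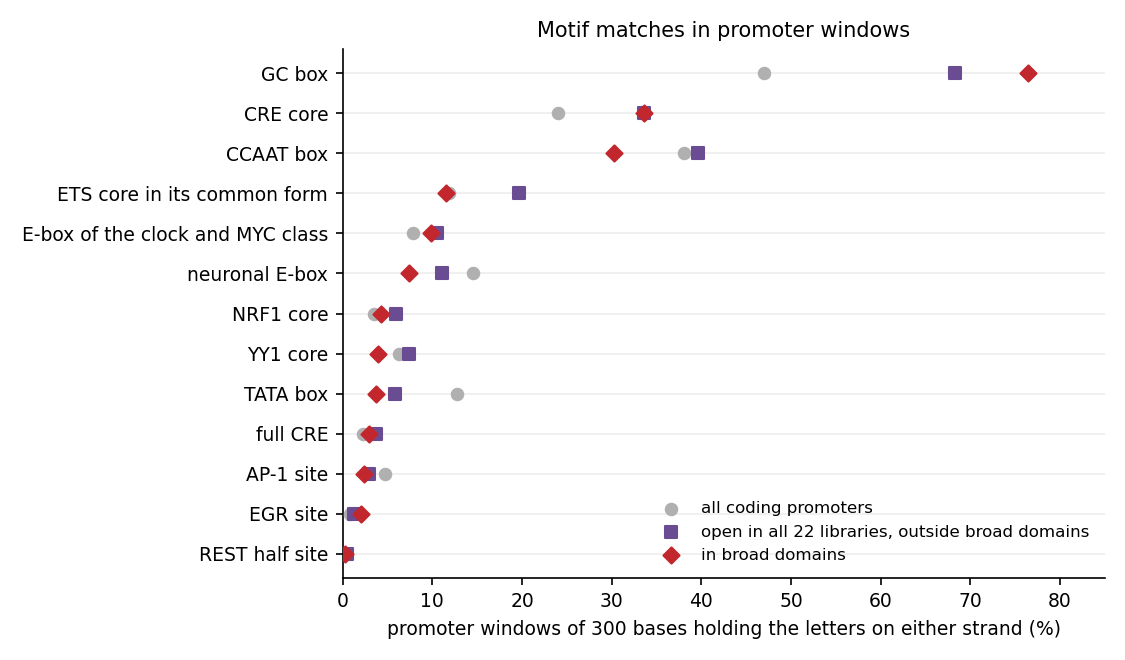
Share of RefSeq promoter windows of 300 bases (x axis, percent) that hold each motif on either strand (y axis), for all coding promoters (grey circles), promoters open in all 22 libraries outside broad domains (purple squares) and promoters in broad domains (red diamonds). The red diamond lies furthest right for the GC box, at 76.4%, and to the left of the purple square for the CCAAT box, at 30.3% against 39.6%.

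Most broad domains sat on a gene start. In 525 of 711 (73.8%) a start of the promoter table lay inside, and in 506 of these the gene was protein-coding. A further 121 (17.0%) held an end of an annotated gene without an entry in the promoter table, 51 (7.17%) lay within a protein-coding gene body, and 14 (1.97%) lay between genes. Among the merged regions that reached 1500 bp in only 1 to 10 lists, 57.4% held a start. The share was 1.77% among 18428 narrow sites, which had an interval in all 22 lists and none of 500 bp or more and are also shorter (median region 466 bp, against 1912 bp for the domains). Promoter entries numbered 2 or more in 201 domains (28.3%), and these can belong to 1 gene, as at Sp3. In 108 domains a gene on the minus strand and a gene on the plus strand started back to back, a median of 223 bp apart, such as the pair Srsf2 and Mfsd11 (a splicing factor and a membrane protein).

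Around a single start, more of the domains reached further into the gene than reached further upstream of it. For 314 domains with a single start and an interval over it in every library, the median reach was 706.5 bp upstream and 947 bp downstream, and 201 of the 314 (64.0%) reached further downstream. At coding starts outside broad domains that lay under an interval, the medians were 393 bp upstream and 441 bp downstream, and 54.1% reached further downstream. The libraries differed mainly in the downstream edge. Over the 22 libraries, the median upstream reach ran from 649.5 to 724 bp and the median downstream reach from 655 to 983 bp. The lowest downstream value was in hippocampus saline replicate 3 and the highest in hippocampus LPS 12 h replicate 4. In the former the medians were nearly equal, 653 bp upstream and 655 bp downstream, and 50.8% reached further downstream.

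**Figure D2:**
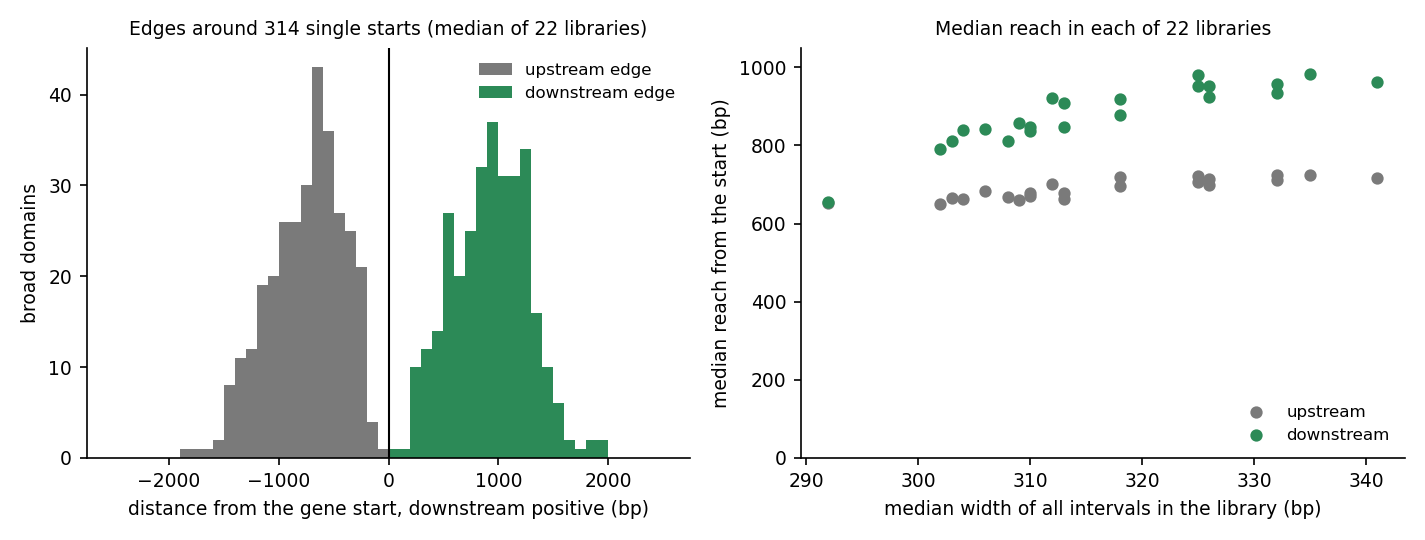
Left, number of broad domains (y axis) by distance of the upstream edge (grey) and downstream edge (green) from the gene start (x axis, bp; median of 22 libraries for each of 314 domains). Right, median upstream and downstream reach (y axis, bp) in each of 22 libraries, by the median width of all intervals in that library (x axis, bp); the upstream points stay between 649.5 and 724 bp while the downstream points span 655 to 983 bp.

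The median of the widest interval over the 22 libraries was 1632 bp over all domains, with quartiles of 1547.5 and 1759.8 bp and a highest value of 3715 bp. The widest domain lay over the ribosomal RNA gene copy on chromosome 17 (AY036118 and Rn18s-rs5, chr17:39843043-39848786), a template for ribosomes of which the genome carries many copies and the assembly few. Its widest interval measured 3656 to 3831 bp in hippocampus. In frontal cortex it measured 3624 to 5744 bp, and the highest value was that of LPS 6 h replicate 1, whereas the other 10 cortex libraries reached at most 3868 bp. The next, at chr9:124422602-124425984 over the start of LOC108167694, had a median of 3213.5 bp. Grin2a (2604.5 bp, within the body of the gene of an NMDA receptor subunit), Crlf2 (2513 bp, a cytokine receptor) and Csf2ra (2401 bp, within the gene of another cytokine receptor) were also among the 10 widest. So were Sp3 (2380.5 bp), Setd7 (2373.5 bp, a lysine methyltransferase), the locus of Hsp90ab1 and Gm35399 (2362.5 bp, a cytosolic chaperone and a neighbouring transcript) and a region at Ppargc1b (2327.5 bp, a metabolic coactivator). Grin2a ranged from 923 to 2707 bp and the Ppargc1b region from 801 to 2481 bp between libraries, while Crlf2 stayed between 2373 and 2610 bp.

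Broad intervals were composites of several summits. The intervals over the domains held 4 summits at the median in each library, against 1 over all intervals. The authors' fold enrichment, taken as the median over libraries for each domain, had a median of 6.50 and ran from 2.25 to 11.9 between domains.

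A domain that lacked an interval of 1500 bp in a library was still open there. All 711 domains held a peak in every library. Over the 15642 combinations of domain and library, 76.5% had an interval of 1500 bp or more, 15.9% had several shorter intervals, which covered a median of 84.3% of the region, and 7.60% had a single shorter one, which covered a median of 79.8%. In 105 domains all 22 libraries had an interval of 1500 bp or more, and the range of the widest interval between libraries had a median of 278 bp among these. The least variable was the domain between Pigp and Ttc3 (an enzyme of membrane anchor synthesis and a ubiquitin ligase), at 1762 to 1823 bp. The domain at Bhlhe40, a clock-linked repressor, measured 1759 to 1830 bp. Eif4g2, a translation factor, followed at 1595 to 1690 bp, and Sp1, the founding GC-box factor, at 1622 to 1727 bp. Pigp, Ttc3, Eif4g2 and Sp1 were picked after their values were seen.

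At the edge of the rule, 76 domains were kept with an interval in exactly 11 lists and 82 regions were left out with one in exactly 10. The median of the widest interval had a median of 1495 bp in the former and 1444.8 bp in the latter. The widest just inside were at Dyrk1a (1641.5 bp, a kinase), Syncrip (1528 bp, an RNA-binding protein) and Magi1 (1522.5 bp, a scaffold protein). The widest just outside were at Arih1 (1497.5 bp, a ubiquitin ligase), Fbxo33 (1496.5 bp, a ubiquitin ligase adaptor) and within Dap3 (1496.5 bp, a mitochondrial ribosomal protein).

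The gene lists differed widely in how many of their genes lay in broad domains. Over all 20661 protein-coding genes of these chromosomes, 722 (3.50%) had a start or an end in a broad domain. Of 39 ubiquitously expressed housekeeping genes 10 did, led by Hsp90ab1 (2362.5 bp), Srsf2 (1785 bp), Polr2a (1753 bp, the largest subunit of RNA polymerase II) and Hnrnpa1 (1734.5 bp, an RNA-binding protein). Of 49 chromatin regulators and histone modifiers 11 did, led by Arid1b (2117.5 bp, a subunit of the SWI/SNF remodeller), Kmt2e (2038.5 bp), Kmt2c (1834 bp, a histone methyltransferase) and Asxl3 (1718.5 bp, a Polycomb-associated protein), and the others were Setd5, Ep300, Ctcf, Tet2, Setd1a, Chd7 and Kmt2a. Ribosomal protein genes, expressed in all cells as well, had 2 of 34, namely Rpl7 (2023 bp) and Rps6 (1491.5 bp).

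Of 50 synaptic and neuronal genes 5 were in broad domains, among them Shank3 (2312 bp), Syt1 (1615 bp) and Cplx2 (1588.5 bp, a regulator of vesicle fusion). Of 55 forebrain transcription factors 4 were, namely Bhlhe22 (1814 bp), Bhlhe40 (1793.5 bp), Nfib (1761 bp) and Zbtb20 (1574 bp). Of 20 clock genes 3 were, and the domains at Bhlhe40, Nr1d2 (1619 bp, a repressor of the clock) and Clock (1615 bp) each had an interval of 1500 bp or more in all 22 libraries. Of the 29 genes of the glucocorticoid receptor and its targets, Rhob (1881 bp, a small GTPase) and Fkbp4 (1583 bp, a chaperone of steroid receptors) were in. A further domain lay within the body of Nr3c1, the glucocorticoid receptor gene (chr18:39489056-39491920), chosen after its value was seen, and it was covered over 2557 ± 99.4 bp (SD, n = 11) in hippocampus and 2543 ± 125 bp (SD, n = 11) in cortex (adjusted p = 0.825, limma).

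Single genes came from 3 further lists: Hey1 (1513 bp, a Notch effector) of 20 glial and stem cell factors, Pnpla6 (1615.5 bp, the neuropathy target esterase) of 25 cholinergic and esterase genes, and Qk (1470.5 bp, an RNA-binding protein of oligodendrocytes) of 19 oligodendrocyte lineage markers. No gene had a start or an end in a broad domain among 36 immediate early genes, 41 inflammatory and NF-kB genes, 27 interferon response genes, 20 microglia, 20 astrocyte, 22 endothelial and mural and 18 blood markers, 34 brain microRNA genes and 20 Hox genes. The lists were written with earlier results of these data known, and their counts are descriptions without a test.

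**Figure D3:**
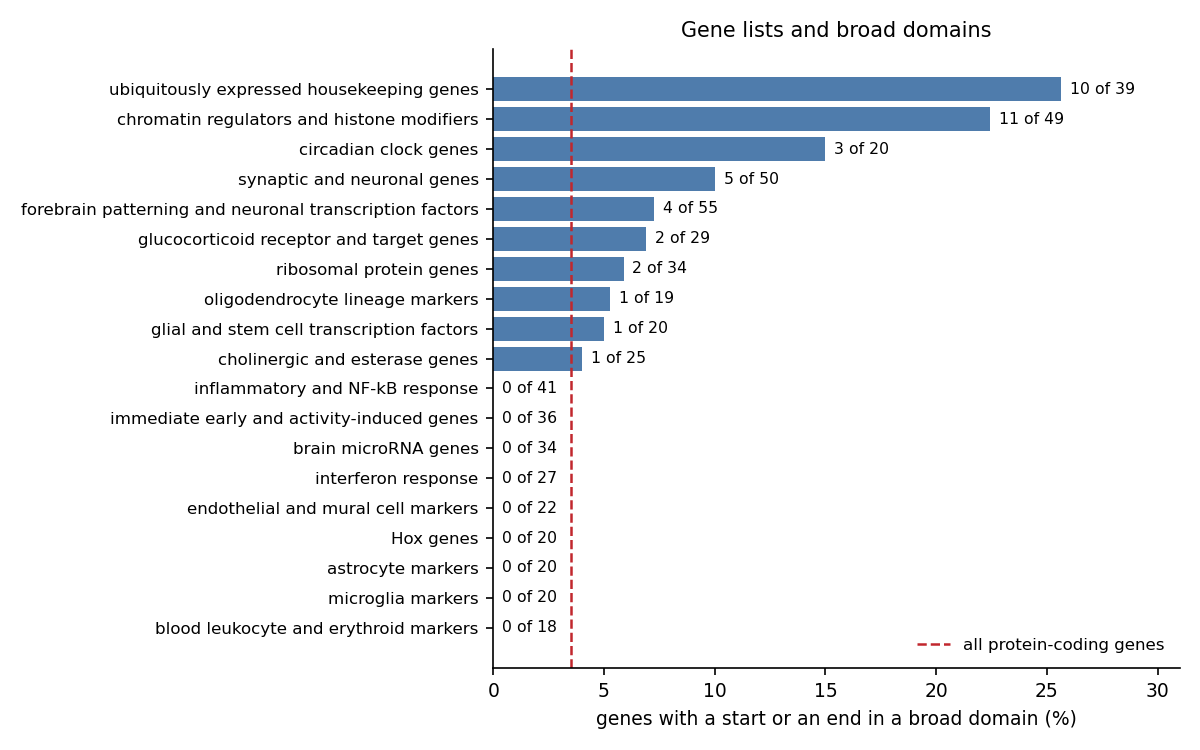
Percent of the genes of each list (y axis) with a start or an end in a broad domain (x axis), with the counts printed beside each bar; the dashed line marks all protein-coding genes, 3.50%. Housekeeping genes (10 of 39) and chromatin regulators (11 of 49) lie highest, and 9 lists are at 0.

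Genes transcribed by other polymerases were present too. Of 391 annotated tRNA genes, which RNA polymerase III reads, 28 (7.16%) had an end in 14 broad domains, against 3.03% of protein-coding genes, 0.959% of long noncoding RNA genes and 0.880% of microRNA genes by the same measure. The domains with tRNA genes included a cluster of 4 genes at chr1:171101606-171103494 (median widest interval 1726.5 bp) and another of 4 at chr3:19627808-19629438 (1566.5 bp). Those at Mrpl58, Agbl5, Gm39054, Rab11a, Elf1 with Wbp4, 4833417C18Rik with Gm38959, Lasp1 and Smarcc2 also held a start or end of these genes. The tRNA genes were thus not the only genes in the 14 domains. Among 39 imprinted genes, a list written after the domains were seen, the bodies of 4 overlapped a broad domain (10.3%, against 3.80% of all protein-coding genes). These were Peg3 (1748 bp), Grb10 (1756 bp), Impact (1745.5 bp) and Ube3a (1761.5 bp), and all 4 domains had an interval of 1500 bp or more in all 22 libraries.

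The number of domains with an interval of 1500 bp or more differed between libraries from 349 in hippocampus saline replicate 3 to 664 in hippocampus LPS 12 h replicate 4. It moved with a property of the whole peak list. The median width of all intervals in a library was 292 bp in the former and 335 bp in the latter, and across the 11 hippocampus libraries the number of domains had an r of 0.958 and a rho of 0.955 with it. Across the 11 cortex libraries r was 0.834 and rho 0.895. Without the 2 libraries farthest from the median width, r was 0.966 in hippocampus and 0.822 in cortex. With the number of intervals, r was 0.0992 and rho 0.200 in hippocampus, and r was -0.0703 and rho -0.00909 in cortex. These 4 relations are descriptions, since the count is the value that chose the domains and the libraries of a tissue share their processing. Peak lists hold no read depth, so the part of depth or library quality in these numbers was not tested.

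**Figure D4:**
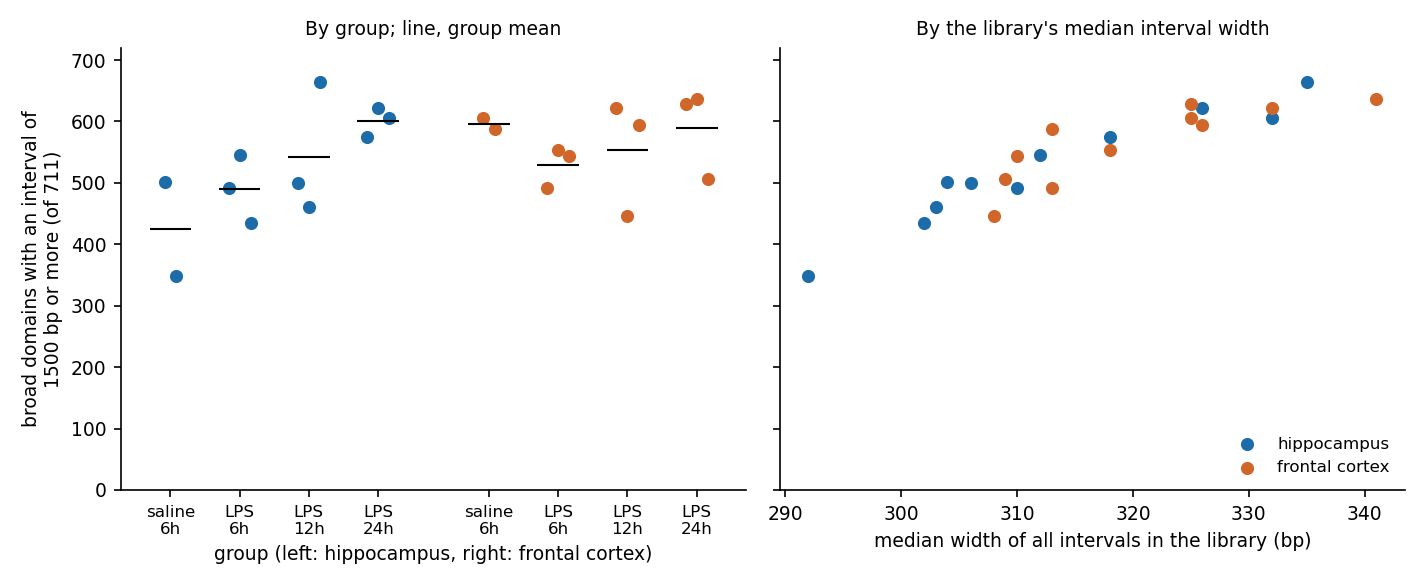
Broad domains with an interval of 1500 bp or more out of 711 (y axis) in each of 22 libraries, by group on the left (points, libraries; lines, group means) and by the median width of all intervals of the library in bp on the right (blue, hippocampus; orange, frontal cortex). The lowest point, 349, is the saline library with the narrowest intervals, 292 bp.

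Hippocampus and frontal cortex were compared over the length of each domain that intervals covered, on the log2 scale with 100 bp added. Few domains differed, and the differences were small. By limma with Benjamini-Hochberg adjustment over 221529 regions, 32 of the 711 domains (4.50%) were covered over a longer stretch in hippocampus and 91 (12.8%) in frontal cortex. Over all regions tested, 29.4% were called longer in hippocampus and 26.8% longer in frontal cortex. Among other regions that, like every domain, held a peak in all 22 libraries, 41.3% were called in either direction. The median difference (hippocampus minus cortex) was -0.01 over the domains, as it was over those other regions, with 10th and 90th percentiles of -0.10 and 0.05 in the domains. The covered length cannot exceed the region, which caps the difference. With each library centred on its median, 37 domains were called longer in hippocampus and 59 in cortex (13.5% of domains, against 56.9% of all regions). With the 50000 strongest intervals of each library 688 domains were tested. Of these, 22 and 46 were called (9.88%, against 45.5% of all regions). Only 3 domains were called with a ratio of 1.2 or more, all longer in cortex, and after centring 1 was longer in hippocampus and 2 in cortex. Without centring, 59536 of all 221529 regions were called with that ratio longer in hippocampus and 51950 longer in cortex. Rasal2, 1 of the 3 longer in cortex, and Got2, among the 91, met the rule through cortex libraries alone. The rule thus favoured their direction. The median difference of the domains was 0.0045 after centring. Without 1 animal, the number longer in hippocampus ran from 18 to 26. It was 18 with LPS 6 h replicate 3 left out. It was 21 with LPS 6 h replicate 1, LPS 12 h replicate 3, or any of the 3 LPS 24 h animals left out, and 22 to 26 otherwise.

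The largest difference was at a domain within Rasal2, a gene for a Ras GTPase-activating protein (chr1:157168695-157170335). The covered length had a lowest, median and highest value of 825, 1041 and 1454 bp in hippocampus and of 1512, 1550 and 1617 bp in cortex. Every cortex library lay above every hippocampus library, and none of 11 hippocampus libraries but all 11 cortex libraries had an interval of 1500 bp. The means were 1068 ± 208 bp and 1554 ± 31.5 bp (SD, n = 11 each), with a log2 difference of -0.52 ± 0.07 (SE). It met the rule through its 11 cortex libraries alone, so it had to be longer there, and its difference is a description with no test. The second lay between genes, 44659 bp from the nearest coding gene, Zfp958 (chr8:4677232-4679707). It covered 1578, 1741 and 1928 bp in hippocampus and 2022, 2178 and 2464 bp in cortex (lowest, median, highest), again without overlap, with a log2 difference of -0.32 ± 0.03 (SE; adjusted p = 1.72e-08, limma). Its widest single interval had medians of 1693 bp in hippocampus and 1626 bp in cortex, a log2 difference of 0.0089. The third, at Wnk2, a kinase that regulates ion cotransporters, had an interval over the gene's start in only 3 of 22 libraries (chr13:49145930-49148388). It covered 1370, 1564 and 1914 bp in hippocampus and 1788, 1967 and 2384 bp in cortex, which overlapped, with a log2 difference of -0.28 ± 0.06 (SE; adjusted p = 0.000314, limma). It was not called from the 50000 strongest intervals (adjusted p = 0.619, limma), and neither was the Zfp958 region (adjusted p = 0.323, limma).

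Syt1 was the sole other domain whose 2 tissues did not overlap. That made 3 of 711 domains, among them Rasal2, which met the rule through cortex libraries alone. The same share over all regions was not computed, so whether 3 is few or many cannot be told. Syt1 covered 1545, 1658 and 1763 bp in hippocampus and 1779, 1914 and 2007 bp in cortex, a log2 difference of -0.18 ± 0.03 (SE; adjusted p = 2.56e-06, limma). It was the 1 of 5 synaptic domains that was called. Of the 11 chromatin regulator domains, Arid1b was longer in cortex (2333 ± 191 bp in hippocampus against 2527 ± 161 bp; SD, n = 11 each; adjusted p = 0.0310, limma) and Kmt2e longer in hippocampus (log2 difference 0.06; adjusted p = 0.0309, limma). None of the 10 housekeeping, 3 clock, 4 forebrain factor, 2 glucocorticoid and 2 ribosomal protein domains was called. Hey1 had an interval of 1500 bp in 10 hippocampus and 2 cortex libraries, but its covered length did not pass (adjusted p = 0.0826, limma). The imprinted gene Grb10, also named after its value was seen, was longer in cortex (1745 ± 127 bp against 2064 ± 65.6 bp; SD, n = 11 each; adjusted p = 2.10e-06, limma).

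Among the domains longer in hippocampus, the largest differences, chosen after the values were seen, were at Zfp41, Gm33415 and Picalm. Zfp41, a zinc finger gene (chr15:75614919-75617046), covered 1748, 1937 and 2087 bp in hippocampus and 1427, 1583 and 1798 bp in cortex, with a log2 difference of 0.25 ± 0.04 (SE; adjusted p = 1.85e-05, limma). Gm33415 had a difference of 0.24 (adjusted p = 3.98e-05, limma) and Picalm of 0.21 (adjusted p = 0.000249, limma). In the width of the widest interval, Gm33415 and Picalm differed by -0.19 and -0.085, in the other direction. From the 50000 strongest intervals, Picalm differed by -0.085 (adjusted p = 0.526, limma) and Zfp41 by 0.18 (adjusted p = 0.537, limma). By position, 87 of 525 domains with a start inside were called (16.6%), 14 of 121 with a gene end (11.6%), 14 of 51 within gene bodies (27.5%) and 8 of 14 between genes (57.1%). Over all regions tested 56.2% were called, and 41.3% of the other regions covered in all 22 libraries.

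**Figure D5:**
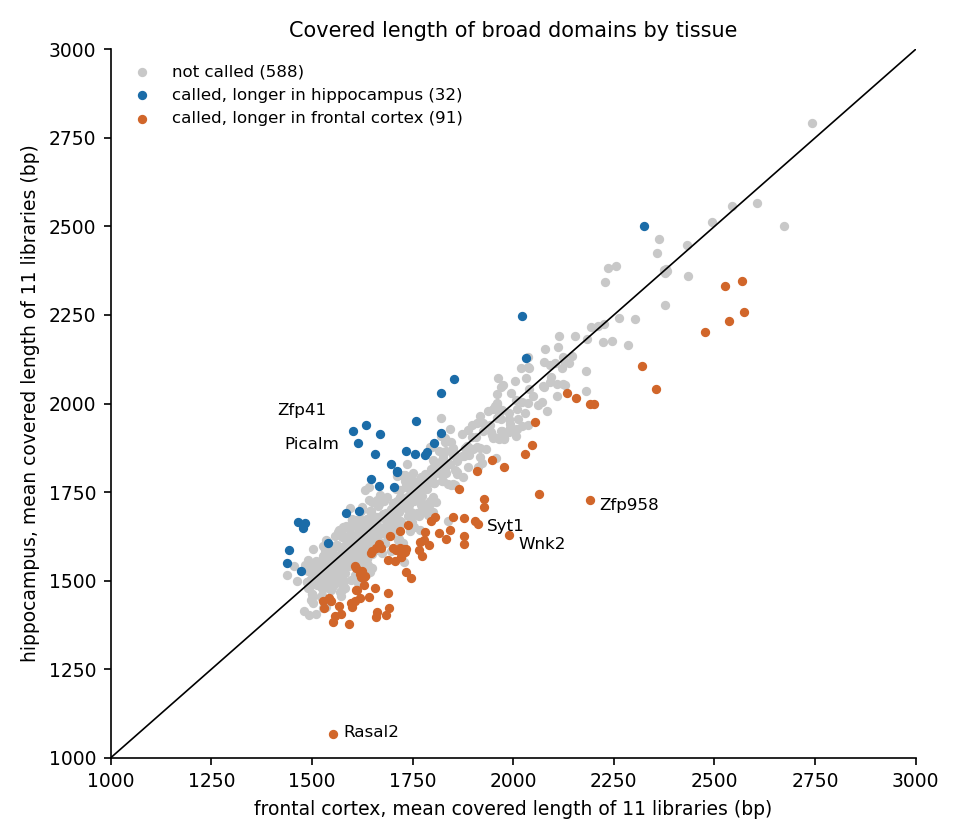
Mean covered length of each broad domain in frontal cortex (x axis, bp) against hippocampus (y axis, bp), 11 libraries each; the line marks equality, colours mark domains called by limma (blue, 32 longer in hippocampus; orange, 91 longer in frontal cortex), and 2 domains beyond 3000 bp are not shown. Most points lie near the line, and Rasal2 lies furthest below it.

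The count of domains with an interval of 1500 bp, which chose the domains, is given without a test. Hippocampus had 523 ± 91.4 such domains and cortex 565 ± 62.5 (SD, n = 11 each). The cortex count was higher in 7 of 11 animals. By domain, 334 reached that width in more cortex libraries, 195 in more hippocampus libraries and 182 in equal numbers. Rasal2, Got2 (a transaminase) and Coro1c (an actin-binding protein) did so in 10 or more cortex and at most 1 hippocampus libraries, and no domain showed the converse; Got2 and Coro1c were named after their values were seen. Rasal2 and Got2 met the rule through cortex libraries alone and are among the 91 domains called longer there. Of the marker genes with an entry in the promoter table, Prox1, Man1a, Wfs1 and Neurod6 (hippocampus) and Rorb, Tbr1, Cux2, Fezf2 and Lamp5 (frontal cortex) had an interval over a start in all 22 libraries, as did the striatal markers Drd1 and Drd2. The hippocampus markers Zbtb20 and Lmo3 did not: Zbtb20 had one at its single entry in 1 hippocampus and 0 cortex libraries and Lmo3 in none. The broad domain given above for Zbtb20 holds an annotated end of the gene and not that entry. It had an interval of 1500 bp or more in 11 hippocampus and 11 cortex libraries. Rbfox3 of neurons had one in 4 hippocampus and 6 cortex libraries, P2ry12 of microglia in 8 and 11, Ptprc of leukocytes in 8 and 7, and Cldn5 of endothelium in 2 and 1. Gfap, an astrocyte marker, had one in 10 hippocampus and 0 cortex libraries, Hbb-bt of erythroid cells in none, and S100a8 of neutrophils in 1 cortex library. Other markers of these cell types had one in all 22 libraries: Syt1 of neurons, Aldh1l1 of astrocytes, Cx3cr1 of microglia and Kdr of endothelium. So did Mog of oligodendrocytes and Gad1, Gad2 and Slc32a1 of inhibitory neurons. The part of cell composition in the tissue differences was not tested.

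No broad domain was called after LPS. In hippocampus, limma with Benjamini-Hochberg adjustment called 0 of 711 domains at 6, 12 and 24 h against saline. Over all regions the share called was 0.00212%, 0.0244% and 0.0255%. At an unadjusted p under 0.05 there were 6, 12 and 12 of 711 domains, against 16243, 21833 and 23239 of all 282902 regions. The smallest adjusted p of a domain was 0.706, 0.385 and 0.416. In frontal cortex 0 domains were called as well, against 0.0276%, 0.0676% and 0.169% of all regions. Unadjusted, 13, 6 and 9 domains passed, against 17020, 17724 and 28463 of all 260420 regions. The smallest adjusted p of a domain was 0.532, 0.492 and 0.275. The 3 contrasts of a tissue share its 2 saline libraries, and the tissues share the animals.

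The direction of the domains' small common shift after LPS depended on the scaling. In hippocampus the median log2 difference of covered length from saline was 0.02, 0.03 and 0.05 at 6, 12 and 24 h, with 285, 218 and 149 of 711 domains below 0, and over all regions tested the medians were -0.03, 0.03 and 0.05. With each library centred on its median, the domains' medians were 0.0039, -0.03 and -0.05, and 342, 480 and 535 lay below 0. In frontal cortex the domains' medians were -0.03, -0.02 and -0.01 as measured, with 487, 436 and 414 domains below 0. Over all regions tested the cortex medians were -0.03, -0.0004 and 0.08, so at 24 h their sign was opposite to that of the domains. After centring the domains' medians were 0.02, -0.01 and -0.06, with 284, 414 and 614 below 0. The number of domains with an interval of 1500 bp was 349 and 502 in the hippocampus saline libraries, 434 to 545 at 6 h, 461, 500 and 664 at 12 h and 575, 605 and 622 at 24 h after LPS. The 24 h libraries all lay above both saline libraries, and so did their median interval widths, at 318 to 332 bp against 292 and 304 bp. In frontal cortex it was 587 and 606 in saline, 491, 543 and 553 at 6 h, 446, 594 and 622 at 12 h and 506, 628 and 636 at 24 h. The 6 h libraries all lay below both saline libraries, with median interval widths of 310 to 318 bp against 313 and 325 bp. These counts chose the domains and are given without a test, and the part of interval width in them was not tested.

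Other measures called single domains, with no domain called by every measure. With the 50000 strongest intervals per library, Tnrc6b, an RNA silencing factor, was called at all 3 times in hippocampus (log2 differences of 0.93, 0.95 and 0.91). The width of its widest interval, the value that chose the domains, gave the same differences, so they are given as descriptions. Atp6v1a with Naa50 was called at 12 and 24 h (0.47 and 0.47; adjusted p = 0.0374 and 0.0363, limma). The domain of Atat1 was called shorter at 6 h (-0.43; adjusted p = 0.00344, limma). In cortex, Ccni was called shorter at 6 h (-0.83), with the same difference by the widest interval, so this is a description too. Dbndd2 was called at 12 h (-4.33; adjusted p = 2.70e-05, limma). This setting leaves out every interval below the rank cut, and Dbndd2, like every domain, held a peak in every library. In cortex at 24 h, Bicral was called longer from intervals with -log10 q of 5 or more (0.36; adjusted p = 0.0260, limma). These domains were named because an alternative called them, and none was called by the covered length of all intervals. The share called over all regions by these alternatives is not given here.

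The authors' deposited tables of differential regions touched 8 of the 711 domains, each in 1 table. In the authors' deposited table for cortex at 24 h, 3 domains overlapped a region listed as up (Sobp, Sntg1 and a region near Ndufb4) and 1 a region listed as down (Aff3), against 1.88% of all regions in that tissue. In the authors' deposited table for cortex at 6 h, 3 domains overlapped a region listed as up (the ribosomal RNA locus, Sh3glb1, and B3galt6 with Sdf4), against 0.108% of all regions. In the authors' deposited table for hippocampus at 12 h, Slc24a4 overlapped a region listed as down, against 0.996% of all regions. No domain was touched by the authors' deposited tables for cortex at 12 h (0.0173% of all regions), hippocampus at 6 h (0.00707%) and hippocampus at 24 h (0.0569%).

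At Sobp, a nuclear zinc finger gene, the authors' deposited table gave an FDR of 0.00170. The covered length was 1470 and 1707 bp in the cortex saline libraries and 1723, 1827 and 1874 bp at 24 h, with all LPS libraries above saline (log2 difference 0.18; adjusted p = 0.592, limma). At the region near Ndufb4, a gene of respiratory complex I, the covered length was 1430 and 1716 bp in saline and 1736, 1822 and 1905 bp at 24 h, again above saline (0.20; adjusted p = 0.580, limma), beside an FDR of 0.0109 in the authors' deposited table. At the ribosomal RNA locus it was 4928 and 4956 bp in saline and 4925, 4933 and 5744 bp at 6 h, so 1 LPS library of 3 stood above saline (0.07; adjusted p = 0.977, limma); the authors' deposited table gave FDRs of 0.00235 and 0.0116 for its 2 listed regions. For Sntg1, Aff3, Sh3glb1, B3galt6 with Sdf4 and Slc24a4 the covered lengths of LPS and saline libraries overlapped. The region near Ndufb4, the ribosomal RNA locus and Slc24a4 were described after their values were seen. The authors' deposited tables list signal changes and the covered length measures extent, so the 2 are different quantities.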

How the data were processed

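OMNI-ATAC-seq peak lists of 22 libraries were used. Per the submitters' processing notes the tools were Bowtie2 2.4.4, MACS2 2.2.7.1, Trim Galore 0.6.7 and FastQC 0.11.9, with GRCm38 (mm10); no source used here says whether cut positions were shifted. In the deposited lists each peak has a score, a ratio (fold over background) and its -log10 p and -log10 q. These served only to rank, filter or describe peaks of one library. The authors' tables of differential regions give up or down and a number, taken as -10 log10 FDR. Peak lists carry no depth.

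Summits that shared an interval were counted once. Intervals that touched no merged wide region were merged into further regions, and the covered length of each region (log2, 100 bp added) was fitted with limma 3.58.1 in R 4.3.3 over regions covered in 11 or more libraries (tissue) or 3 or more of a tissue's libraries (LPS against saline), with adjusted p under 0.05. By their titles, both tissues of a pair came from 1 animal; deviations of paired libraries correlated at -0.00873 to 0.181, and the main fit has no animal term. Gene positions and promoter windows are RefSeq, GRCm38.p6; a gene counted as in a domain where its promoter start or either end lay inside. The domains, gene lists and tests were chosen with earlier results of these data known. Named were the 10 widest domains, up to 4 per list, called domains with a ratio of 1.2 or more, and domains at the edge of the rule or in the authors' tables, and any others are marked as chosen later. A few domains that this rule names are not reported here. Fits were tested on simulated data first. Alternatives covered width and list minimums, stricter and stronger intervals, the widest interval, pseudocounts, filters, centring, an animal block and left-out libraries. Python 3.11.15, numpy 2.4.6, pandas 2.3.3, scipy 1.17.1 and matplotlib 3.10.9 were used.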

Additional observations from a re-analysis of the deposited data

Results flagged for a closer look

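Peak intervals outside chromosomes 1 to 19 are not part of the domains above and gave signal by the same rule. On chromosome X, 20 merged regions held an interval of 1500 bp or more from 11 to 21 lists, and 3 did on unplaced or random contigs, of which 2 on one contig were in all 22 lists. No group of this study had 4 to 10 libraries, so no search for single outlying libraries was made.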

How the results depend on the processing

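The number of domains was 711 with a -log10 q of 5 or more and 668 from the 50000 strongest intervals. It was 50 with a minimum width of 2000 bp, 6534 with 1000 bp, 105 when all 22 lists were required and 1236 with 6 lists. Without 1 library it was 655 to 705. Domains longer in hippocampus and in cortex numbered 32 and 91. Each library centred on its median gave 37 and 59, and the 50000 strongest intervals, with 688 domains tested, 22 and 46. The widest interval gave 16 and 59, and a ratio of at least 1.2 gave 0 and 3. The widest interval is the value that chose the domains, so its counts are descriptions. With the animal as a replicate block, domains longer in hippocampus and in cortex numbered 26 and 82 (15.2% of domains, against 56.8% of all regions). Of the 123 domains called without it, 102 were called in both fits. Without 1 animal they numbered 18 to 26 and 62 to 84; the lowest hippocampus count came without the animal of LPS 6 h replicate 3. Pseudocounts of 10 and 500 bp, no filter, -log10 q of 5 and wide regions alone kept both counts within 1.5 times. By single domain, Zfp958 reversed to 0.0089 by the widest interval, Picalm to -0.085 by the widest and by the 50000 strongest intervals, and Gm33415 to -0.19 by the widest. After LPS, domains called at 6, 12 and 24 h were 0, 0 and 0 in both tissues, also without any 1 library. In hippocampus they were 2, 2 and 2 with the 50000 strongest intervals and 2, 3 and 3 by the widest interval (Tnrc6b and Gm13524 at each time, Hbp1 at 12 and 24 h). In cortex they were 1 at 6 h and 1 at 12 h with the strongest intervals, 1 at 6 h by the widest, and 1 at 24 h with -log10 q of 5. The cause of these changes was not tested. Peak lists hold no depth, so differences that more reads would show cannot be bounded.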
